A study of Mus musculus with 22 samples.

Results

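Ighg1 was the immunoglobulin chain gene that could be followed by name in these spleens, on 1 probe of the 45281 on the array, whose named probes cover 19057 genes. The search covered every probe whose annotated symbol is that of a heavy, kappa or lambda chain gene. The RefSeq table of the mouse assembly GRCm38.p6 lists 395 such genes, among them 12 constant regions and 225 variable segments, and updating the symbols through that table added no probe. No light chain, variable segment or other heavy chain constant region is therefore described by name, and constant and variable genes could not be set against each other. A further 10378 probes carry no gene name, 5963 of them among the 30013 bright enough to be tested, and whether any of these reads an immunoglobulin transcript cannot be told from the annotation.

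Ighg1 encodes the constant region of the IgG1 heavy chain. A B cell starts with IgM and IgD, and class switch recombination can replace them with a constant region further along the locus. By rising chromosome position, the RefSeq table lists the heavy chain constant regions as Igha, Ighe, Ighg2c, Ighg2b, Ighg1, Ighg3, Ighd and Ighm. The starting pair, Ighm and Ighd, stands last in that order, so a switch moves from there towards Igha. In mice, T cell help and interleukin 4 favour the switch to IgG1, much of it early in a germinal centre response, and plasma cells then hold the largest amounts of the transcript per cell. A B cell clone is recognised by its own variable segment, so a constant region alone does not mark one. The sources used here do not say which stretch of the transcript the probe reads, and how far it also binds the related IgG genes was not tested.

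RNA came from the whole spleens of 22 mice, 1 array per mouse, and every mouse carried a cyclin D1 transgene. Every mouse also received red blood cells of sheep (SRBC), an antigen that draws T cell help. Bim, the pro-death protein encoded by Bcl2l11, was deleted in the B cells of 14 of these mice. In 7 of the 14 disease had developed by histopathology, labelled MCL (3 given SRBC with irradiation, 1 SRBC with pristane and 3 SRBC alone), and in the other 7 it had not (3, 2 and 2 mice in the same order). The transgene alone was carried by 8 mice, labelled as without disease (3, 2 and 3). The sources used here do not give the promoter of the transgene, the means of deletion or the ages. Mice are named by stimulus, I for irradiation, P for pristane and A for SRBC alone, and by the number in their title.

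The deposited values are log2 intensities with the same distribution on every array, with a median of 6.55, an upper quartile of 6.98 and a highest value of 14.40. The arrays of transgene-only mouse P_2 and non-diseased mouse P_1 stood furthest from their own groups, with a mean correlation across probes of 0.940 and 0.953 to the other arrays of the group. Ccnd1 averaged 9.92 ± 0.40 in diseased mice, 10.09 ± 0.47 in Bim-deleted mice without disease and 10.32 ± 0.47 in transgene-only mice (SD, n = 7, 7 and 8). Bcl2l11, deleted only in B cells of a mixed tissue, was read from its brightest probe. That probe averaged 8.35 ± 0.49 in diseased mice, 7.79 ± 0.12 in Bim-deleted mice without disease and 8.23 ± 0.23 in transgene-only mice. It does not show the deletion as a lower level in both Bim-deleted groups, and whether it reads the deleted part of the gene was not tested.

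Ighg1 was one of the most variable transcripts on the array, and most of its variation lay between mice of the same group. Its level ran from 6.64 to 11.56 over the 22 mice, a 30.3-fold range in intensity, and its lowest values were close to the array median. The SD over all mice was 1.43 on the log2 scale, against a median of 0.0818 over the probes tested, and 0.123% of probes had an SD as large or larger, which ranked Ighg1 as number 37. Groups accounted for 12.7% of its variance, where the median probe had 10.4%, and stimuli for 1.19%, where the median probe had 9.98%. The SD within groups was 1.40.

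**Figure D1:**
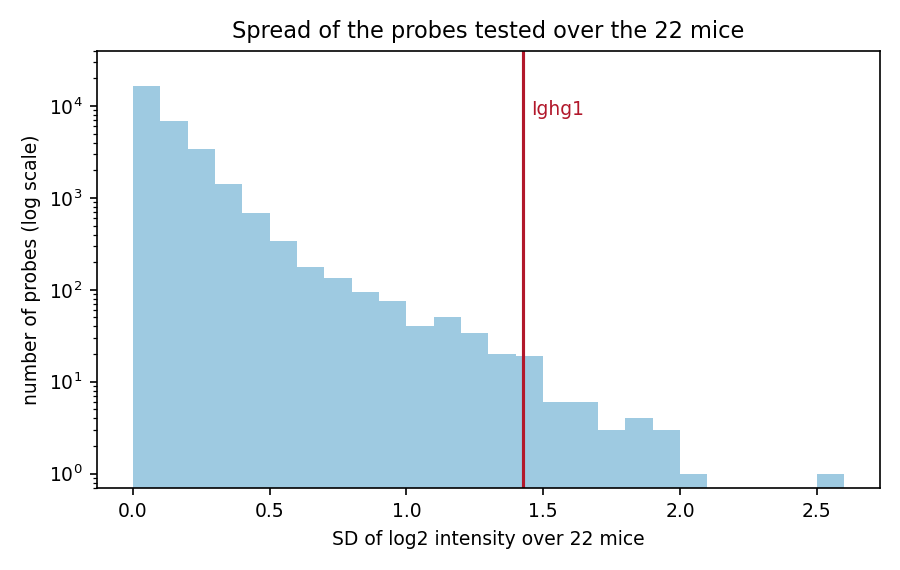
Histogram of the SD of log2 intensity over the 22 mice for the 30013 probes tested (x axis, log2 units), with the number of probes on a log scale (y axis). The vertical line marks Ighg1 at an SD of 1.43, in the far right tail of the distribution.

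Among irradiated mice, Ighg1 stood at 6.71, 9.27 and 7.23 in diseased mice I_1, I_2 and I_3, against 11.56, 9.63 and 9.59 in the non-diseased Bim-deleted mice and 10.07, 7.31 and 9.13 in the transgene-only mice of the same numbers. All 3 diseased mice lay below all 3 non-diseased Bim-deleted mice, and the transgene-only mice overlapped both. Among mice given SRBC alone, the diseased mice had 7.59, 9.56 and 9.50, against 9.57 and 9.76 in non-diseased Bim-deleted mice and 8.69, 9.83 and 9.64 in transgene-only mice. The diseased mice again lay below the non-diseased ones, here by 0.012 between the nearest pair. Among mice given pristane, the diseased mouse had 8.95, against 6.64 and 10.69 in non-diseased Bim-deleted mice and 11.49 and 7.07 in transgene-only mice. Both groups without disease spanned the diseased mouse there, and they held the lowest mouse of the study and the second highest.

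In the order of levels, 6 mice lay between 6.64 and 7.59 and the other 16 at 8.69 or above, and this step of 1.10 was the largest between neighbours. The lower set held 3 of 7 diseased, 1 of 7 non-diseased Bim-deleted and 2 of 8 transgene-only mice, so each group had mice in it. The highest diseased mouse stood at 9.56, and 6 of 7 non-diseased Bim-deleted and 4 of 8 transgene-only mice lay above it. In whole spleen, fewer IgG1-expressing cells and less transcript per cell cannot be told apart.

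**Figure D2:**
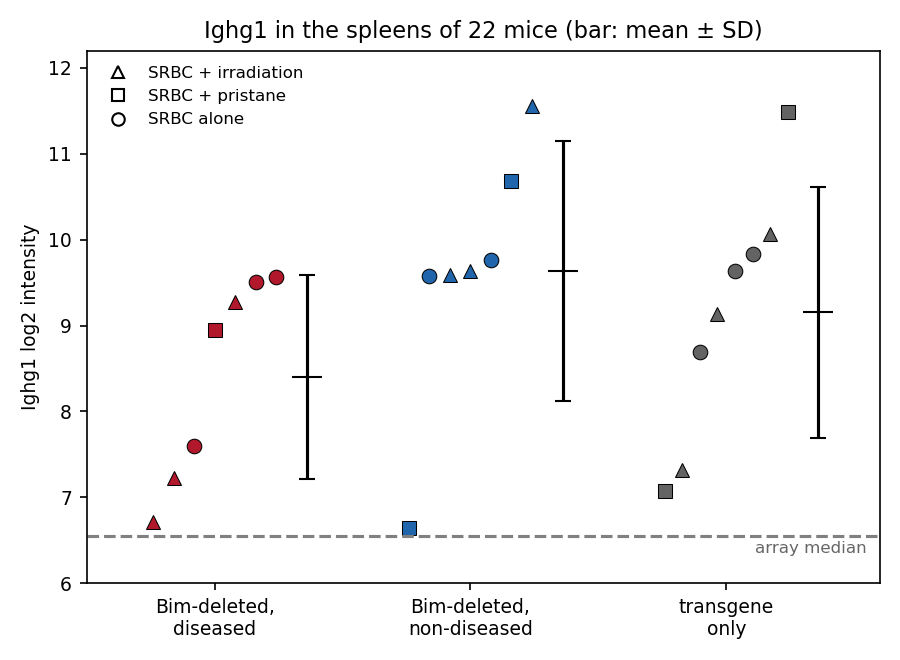
Ighg1 log2 intensity (y axis) of each mouse, by group from diseased Bim-deleted on the left through non-diseased Bim-deleted to transgene only, with the mice of a group in order of level and symbols for the stimulus. Bars give the mean ± SD (8.40 ± 1.19, 9.64 ± 1.52 and 9.15 ± 1.46, n = 7, 7 and 8), and the dashed line is the array median, which the lowest mice approach.

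The main question of the design was what distinguishes Bim-deleted mice with disease from those without. Ighg1 averaged 8.40 ± 1.19 in diseased and 9.64 ± 1.52 in non-diseased Bim-deleted mice (SD, n = 7 each), with medians of 8.95 and 9.63. The log2 difference was -1.23 ± 0.72 (SE), with a 95% interval from -2.74 to 0.27, and it did not pass the test (limma adjusted p = 0.453). Only 0.110% of the probes tested had a larger mean difference in either direction, while 526 probes (1.75%) passed, and the SD of Ighg1 within groups, 1.40, was wider than its difference. As a ratio of intensities, diseased over non-diseased, the interval runs from 0.150 to 1.20.

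Means and ranks gave different p-values, and the lowest mouse of the study, P_1, was a non-diseased one. Over all 3432 splits of the 14 Bim-deleted mice, a two-sided exact permutation test gave p = 0.110 for the means and p = 0.0262 for the mean ranks. With splits made within each stimulus, the difference was -1.35 and the exact permutation p was 0.118. These exact permutation tests were chosen after the values were seen. The rank test was the only one under 0.05 of 9 such exact tests over 3 comparisons, with p = 0.236 after Benjamini-Hochberg adjustment over the 9. Without mouse P_1 the limma difference was -1.73 (adjusted p = 0.203), and without the 5 pristane mice it was -1.71 (adjusted p = 0.133).

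Within stimuli the difference was -2.53 under irradiation, -0.78 with SRBC alone and 0.29 with pristane, where a single diseased mouse was compared. The exact two-sided permutation p was 0.1 under irradiation, the smallest that 3 against 3 mice allow, and 0.5 with SRBC alone, where 0.1 was also the smallest possible. Of all probes tested, 2.47% had every diseased mouse below every non-diseased Bim-deleted mouse in both of these stimuli, as Ighg1 did, 6.30% had it under irradiation and 17.5% with SRBC alone. The disease effect in irradiated minus SRBC alone mice was -1.75 ± 1.80 (SE, limma adjusted p = 0.994). No probe passed that test (0%), while 1355 had an unadjusted p under 0.05.

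Ighg1 averaged 8.40 ± 1.19 in diseased mice (SD, n = 7), against 9.15 ± 1.46 in transgene-only mice (SD, n = 8), a difference that did not pass the test either. The log2 difference was -0.75 ± 0.70 (SE), with a 95% interval from -2.21 to 0.70 (limma adjusted p = 0.615), while 1372 probes (4.57%) passed, 2.13% of all probes as higher and 2.44% as lower. Non-diseased Bim-deleted mice stood 0.48 ± 0.70 (SE) above transgene-only mice, with an interval from -0.97 to 1.94 and a limma adjusted p that rounds to 1. No probe passed there (0%), and 999 had an unadjusted p under 0.05. These 2 comparisons share the transgene-only mice.

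Differences in Ighg1 between stimuli were smaller than the spread within them. It averaged 8.95 ± 1.57 in irradiated mice (n = 9) and 8.97 ± 2.14 in pristane mice (n = 5), against 9.27 ± 0.76 with SRBC alone (SD, n = 8). In the model of group and stimulus, irradiation minus SRBC alone was -0.40 ± 0.68 (SE, limma adjusted p = 0.998), a comparison in which no probe passed (0%) and 1370 had an unadjusted p under 0.05. Pristane minus SRBC alone was -0.52 ± 0.81 (limma adjusted p = 0.818), where 4 probes passed (0.0133%). The pristane value rested on single mice, at 0.19 without non-diseased mouse P_1 and -1.23 without transgene-only mouse P_1.

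**Figure D3:**
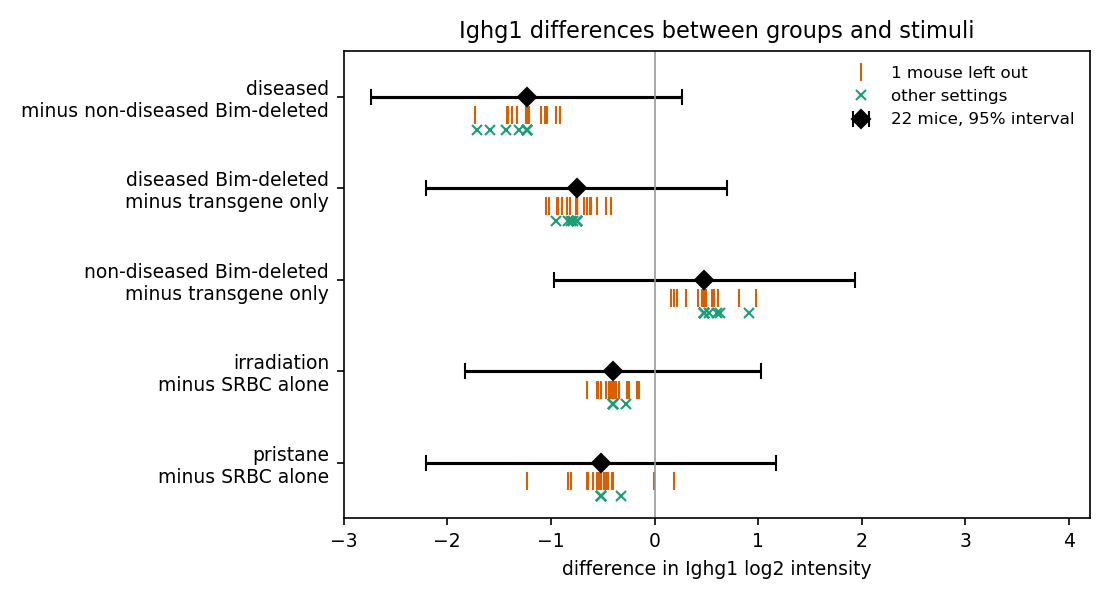
Differences in Ighg1 log2 intensity (x axis) for 3 group and 2 stimulus comparisons, each named as the first minus the second. Diamonds with bars give the value over 22 mice with its 95% interval, ticks the values with 1 mouse left out and crosses those of the other settings. Every interval spans 0, and for pristane 1 tick lies on the other side of 0.

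A transcript of 1 expanded clone could appear as a probe high in 1 mouse, which was defined as a highest mouse at least 1 log2 unit above the second. Ighg1 showed no such pattern, as its highest mouse, non-diseased mouse I_1, stood 0.0719 above transgene-only mouse P_1. It was the only named immunoglobulin probe and does not mark a clone, so a clonal signal could not be searched for. Of the probes tested, 100 (0.333%) met the definition. No diseased mouse was among the 3 highest for Ighg1.

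The probe most like Ighg1 over the 22 mice was ILMN_2440960, to which the annotation gives no gene. Likeness was measured by Pearson's r among 1012 probes with an SD of at least 0.5, a rule chosen after the values were seen. The 20 most alike probes were all unnamed, with r from 0.718 to 0.988, where 25.8% of the 1012 were unnamed, and the first named probe came 27th. ILMN_2440960 had r = 0.988 and Spearman's rho = 0.938, r = 0.991 among the 16 mice above the step and r = 0.873 among the 6 below it. In a limma fit of each probe on Ighg1 with a mean per group, its slope was 0.82 ± 0.03 (SE, adjusted p = 1.827e-12 over 30012 probes), and without the 2 mice farthest from the median of Ighg1 the adjusted p was 3.000e-11.

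ILMN_2440960 followed Ighg1 closely from mouse to mouse. In irradiated diseased mice I_1, I_2 and I_3 it stood at 6.70, 8.40 and 6.73, against 10.67, 8.69 and 8.66 in the non-diseased Bim-deleted mice of the same numbers. Its highest mice were, as for Ighg1, non-diseased mouse I_1 and transgene-only mouse P_1, the second at 10.61. Its mean was 1.02 lower in diseased than in non-diseased Bim-deleted mice, on the log2 scale. ILMN_2440960 was chosen for its likeness to Ighg1 in these same mice. Its levels and difference therefore follow from those of Ighg1 and are not independent support. The second most alike, ILMN_1229263, had r = 0.822 over all mice but 0.525 among the 16 above the step, and its slope missed the threshold (limma adjusted p = 0.0512).

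**Figure D4:**
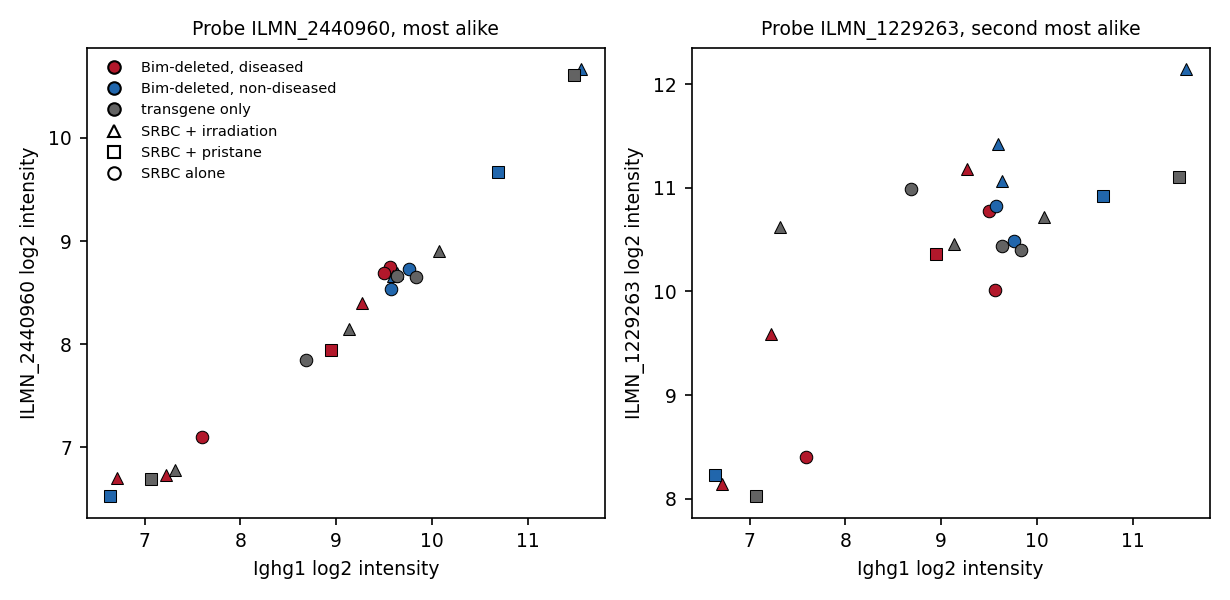
Log2 intensity of the 2 unnamed probes most like Ighg1 (y axes) against that of Ighg1 (x axes), with a point per mouse, coloured by group and shaped by stimulus. ILMN_2440960 follows Ighg1 along its whole range, while ILMN_1229263 shows more scatter, both among the lowest mice and among the others.

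Within groups, 5 probes changed with Ighg1 in that fit, 2 upwards (0.00666%) and 3 downwards (0.01%). The second upward one was Wdr33, a factor of mRNA polyadenylation, with a slope of 0.04 (limma adjusted p = 0.028) and an SD of 0.0651 over the mice. The downward ones were Rab15, a small GTPase of endosomes, at -0.14, Dym, a Golgi-associated protein, at -0.12, and Pelo, a ribosome rescue factor, at -0.13 per log2 unit of Ighg1. Without the 2 farthest mice, ILMN_2440960 was the only one of the 5 to pass.

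Among the 1012 probes with an SD of at least 0.5, the 5 named genes with the highest r to Ighg1 were Hvcn1, a proton channel of B cells (0.69), Gzmm, a granzyme of cytotoxic lymphocytes (0.67), Rassf2 (0.66), Ccr6, a chemokine receptor of B cells and T cells (0.64), and Zfp608 (0.63). Among the 16 mice above the step these values were 0.20, 0.33, 0.23, 0.06 and 0.34, and no slope passed (limma adjusted p from 0.229 to 0.314 for the 10 highest named probes). Among the same probes the lowest r of named genes belonged to Slc48a1, a haem transporter, and Apol11b, both at -0.58. Samd14 followed at -0.56, then Erfe, a hormone made by erythroblasts, and Cd59a, both at -0.55. Among the 16 mice above the step these 5 values were -0.31, -0.32, -0.26, -0.12 and -0.33. None of their slopes passed (limma adjusted p from 0.306 to 0.380 for the 5 lowest).

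Partners of the B cell receptor and other genes of B cell identity were listed together, and 11 of 14 were tested. Of the 11, 10 had r above 0 with Ighg1, with a list median of 0.36. All probes had a median of -0.01, and 48.5% of them lay above 0. Among the 16 mice above the step, 5 of the 11 had r above 0, with a median of -0.04. Leaving out the 6 lowest mice also narrows the range of Ighg1, which can lower r, so the part of those mice in the positive values was not tested. Cd79b, the receptor's own signalling chain, averaged 12.75 ± 0.12 in diseased mice, 12.34 ± 0.53 in Bim-deleted mice without disease and 12.29 ± 0.79 in transgene-only mice (SD, n = 7, 7 and 8), with an r of 0.35 over all mice and -0.35 among the 16 above the step. Cr2, the complement receptor of mature B cells, averaged 6.83 ± 0.09 in diseased and 7.31 ± 0.29 in transgene-only mice (SD, n = 7 and 8). Its probe was dim, with the mean of diseased mice between the array median of 6.55 and the upper quartile of 6.98. The difference of Cr2 was -0.49 ± 0.12 (SE, limma adjusted p = 0.024). Cr2 was the only one of the 11 called in that comparison, where 2.44% of all probes were called lower. The call was lost without diseased mouse A_1 (limma adjusted p = 0.051) or transgene-only mouse A_2 (0.052). Cd22, an inhibitory coreceptor, had the highest r of the list at 0.59, and -0.04 among the 16 mice above the step. The median difference of the list between Bim-deleted mice with and without disease was 0.01, with 0 called, where 1.75% of all probes were called. The median difference of all probes was -0.00115.

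Surrogate light chain and recombination genes of B cell precursors, 5 of 7 tested, held 0 calls. Vpreb3, which binds nascent immunoglobulin chains, averaged 7.99 ± 0.79 in diseased mice, 8.89 ± 0.50 in Bim-deleted mice without disease and 9.24 ± 0.89 in transgene-only mice (SD). Its difference between Bim-deleted mice with and without disease was -0.91 (limma adjusted p = 0.266), and that to transgene-only mice was -1.25 (limma adjusted p = 0.061). Igll1, a part of the surrogate light chain, averaged 6.54 ± 0.05 in diseased mice, 6.78 ± 0.47 in non-diseased Bim-deleted mice and 6.60 ± 0.15 in transgene-only mice, all near the array median. Its difference by disease in Bim-deleted mice was -0.24, and -0.07 without non-diseased mouse P_1.

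Genes of class switching and somatic hypermutation, 11 of 14 tested, included 2 that rose in diseased against transgene-only mice, where 2.13% of all probes were called higher. Ung, which removes the uracils that switching starts from, averaged 9.0 ± 0.32 in diseased and 8.45 ± 0.13 in transgene-only mice, a difference of 0.55 ± 0.13 (SE, limma adjusted p = 0.015). Apex1, which cuts the sites that Ung leaves, averaged 7.36 ± 0.13 in diseased and 7.08 ± 0.10 in transgene-only mice, a difference of 0.28 ± 0.08 (SE, limma adjusted p = 0.038), and that call was lost in 10 of 22 fits with 1 mouse left out. Both enzymes also serve base excision repair in dividing cells. Their r with Ighg1 was -0.38 and -0.28, and 2 of the 11 genes had r above 0, against 48.5% of all probes.

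Genes of antibody assembly and secretion in plasma cells, 14 of 16 tested, held 0 calls in each group comparison. Of all probes, 1.75% were called by disease among Bim-deleted mice, 4.57% between diseased and transgene-only mice and 0% between non-diseased and transgene-only mice. Beside these shares, 0 of 14 does not set the list apart. Of the tested genes, 10 of 14 had r above 0 with Ighg1, with a median of 0.10, against 48.5% of all probes. Among the 16 mice above the step 10 of 14 did so, with a median of 0.18. Xbp1, the transcription factor of the secretory programme, averaged 11.40 ± 0.47 in diseased and 12.15 ± 0.38 in non-diseased Bim-deleted mice (SD, n = 7 each), a difference of -0.75 ± 0.22 (SE, limma adjusted p = 0.082). Fkbp11, a chaperone of plasma cells, averaged 8.13 ± 0.55 in diseased mice and 8.77 ± 1.02 in non-diseased Bim-deleted mice. That difference was -0.63 (limma adjusted p = 0.424), and -0.26 without non-diseased mouse P_1. These 2 genes had the largest differences of the list, whose median was -0.05. Of the 14 genes, 5 were higher in diseased mice, among them Pdia4 (0.37) and Tnfrsf13b (0.27). Jchain, the joining chain of polymeric antibodies, stood between 6.49 and 6.70 in all 22 mice, so its probe stayed near the array median in every mouse. Prdm1, a master regulator of plasma cells, fell below the intensity filter.

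Receptors that bind immunoglobulin, 10 of 11 tested, held 0 calls. Fcgr2b, the inhibitory Fc receptor for IgG, averaged 9.29 ± 0.19 in diseased and 8.58 ± 0.58 in non-diseased Bim-deleted mice, a difference of 0.71 ± 0.20 (SE, limma adjusted p = 0.071). Its adjusted p was 0.032 without non-diseased mouse A_2 and 0.050, just under the threshold, with a 60th percentile filter. Fcer2a, the low affinity receptor for IgE on mature B cells, averaged 8.34 ± 0.85 in diseased mice and 9.40 ± 1.15 in non-diseased Bim-deleted mice, a difference of -1.06 (limma adjusted p = 0.337), and its difference without the pristane mice was -1.63 (adjusted p = 0.046). Its r with Ighg1 was 0.51 over all mice and 0.14 among the 16 above the step.

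Germinal centre markers, 4 of 7 tested, all had r above 0 with Ighg1 (0.30 to 0.51, and 0.14 to 0.35 among the 16 mice above the step), against 48.5% of all probes. The median of their differences between diseased and transgene-only mice was -0.74, where that of all probes was -4.460e-04. All 4 of 4 were below 0 and 1 was called, where 2.44% of all probes were called lower. The fall was not particular to this list: T cell markers had a median of -0.84 there, with 0 of 5 above 0 and 1 called lower. Bcl6, the transcription factor of germinal centre B cells, averaged 8.69 ± 0.50 in diseased mice, 9.48 ± 0.60 in Bim-deleted mice without disease and 9.69 ± 0.31 in transgene-only mice (SD). It fell by 1.0 ± 0.24 (SE) against transgene-only mice (limma adjusted p = 0.020), and the call was lost without diseased mouse A_2 (adjusted p = 0.054). Against non-diseased Bim-deleted mice its difference was -0.79 (limma adjusted p = 0.108). Its r with Ighg1 was 0.48 over all mice and 0.14 among the 16 above the step.

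Markers of other cells in the spleen also had r of one sign with Ighg1 in 3 of 4 lists, and kept that sign among the 16 mice above the step. Of all probes, 48.5% had r above 0 over the 22 mice. Genes of 1 cell type can vary together, so the genes of a list are not independent counts. T cell markers, 5 of 8 tested (Cd8a and Cd5 fell below the intensity filter), all had r above 0 (0.38 to 0.62), and their summed log2 level ran from 37.43 to 44.47 in diseased mice, 41.38 to 47.01 in Bim-deleted mice without disease and 37.72 to 49.08 in transgene-only mice. Bcl11b, a T cell transcription factor, fell by 1.06 ± 0.30 (SE) in diseased against transgene-only mice (limma adjusted p = 0.044), a call lost in 14 of 22 fits with 1 mouse left out. All 7 neutrophil markers had r below 0 (-0.34 to -0.27), with summed levels of 66.28 to 82.13 in diseased mice, 71.12 to 91.32 in Bim-deleted mice without disease and 50.49 to 91.39 in transgene-only mice. All 5 tested of 6 erythroid markers had r below 0 (-0.49 to -0.39), with summed levels of 45.94 to 53.50 in diseased mice, 41.41 to 53.96 in Bim-deleted mice without disease and 34.85 to 55.77 in transgene-only mice.

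Neutrophil, erythroid and macrophage markers held 0 calls, and the differences between Bim-deleted mice with and without disease were -1.02 for Ltf and -0.99 for Mpo, 2 neutrophil granule proteins. They were 0.71 for Klf1, the transcription factor of red cell precursors, and 0.51 for Tfrc, the transferrin receptor (limma adjusted p from 0.643 to 0.741 for these 4). Without the pristane mice these differences were -0.39 for Ltf, -0.26 for Mpo, 1.23 for Klf1 and 0.90 for Tfrc. Single non-diseased mice also moved them, to -0.66 for Mpo without P_1 and -0.64 without P_2, and to 0.40 for Klf1 and 0.27 for Tfrc without A_2. Macrophage markers, 5 of 6 tested, summed to 46.28 to 49.83 in diseased mice, 46.59 to 49.40 in Bim-deleted mice without disease and 43.14 to 50.41 in transgene-only mice. Spic, the transcription factor of iron-recycling macrophages, had the lowest r of all listed genes, at -0.61, with a difference of 0.50 (limma adjusted p = 0.246), which had an adjusted p of 0.037 without the pristane mice. Hmox1, the haem-degrading enzyme, differed by 0.42 (limma adjusted p = 0.519). Of the 5 tested macrophage markers, 3 had a difference above 0, with a list median of 0.25. Vcam1 (-0.10) and C1qa (-0.01) were below 0. The median r of the list with Ighg1 was -0.18, and 1 of 5 was above 0 (Vcam1, 0.32). The part of these cell types in the Ighg1 level was not tested, and no slope of any of the listed genes on Ighg1 within groups passed.

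**Figure D5:**
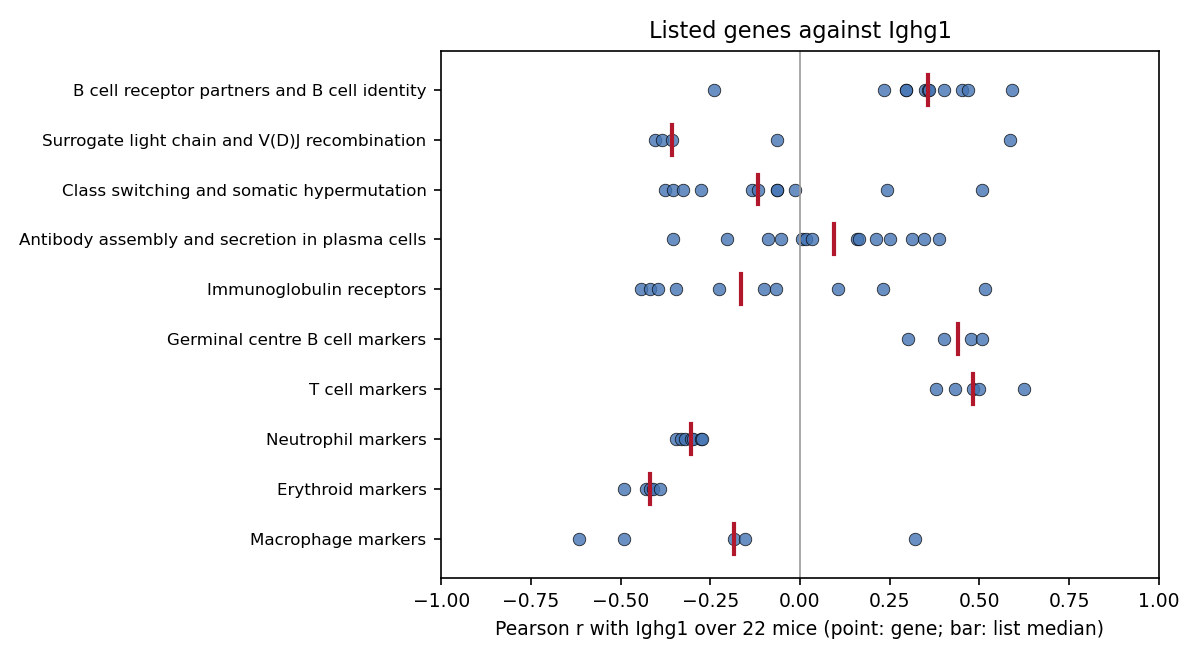
Pearson's r with Ighg1 over the 22 mice (x axis) for each tested gene of the 10 lists (rows), with a bar at the median of each list. Germinal centre and T cell markers lie wholly above 0, and neutrophil and erythroid markers wholly below it.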

How the data were processed

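Spleen RNA of 22 mice was labelled with biotin and measured on a 1-colour Illumina bead array. The deposited values are log2 intensities, a base read from the values, and the authors had normalized them: sorted values agree across arrays within 0.00142. The sources used here do not name the software or the background correction. The deposited unnormalized table has 44 columns of per-sample values, all left out since their names match no mouse, and the planned neqc step gave way to the deposited values. Precision is limited by the number of arrays, 22.

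Of 45281 probes, 34885 had 1 gene symbol, 18 several and 10378 none. Probes above the 40th percentile in at least 7 arrays were kept (30013), each as its own feature. A listed gene with several probes was read from the brightest one. Groups came from the titles, which list 8 transgene-only mice where the design text says 7, and all 8 were used. Each mouse was a replicate, and no 2 arrays were duplicates (lowest SD of difference 0.172). Mice were not paired by title number in the main fits: 5 of 20 same-numbered pairs correlated above 0.1. The values ran from -0.32 to 0.66, the highest between non-diseased and transgene-only mice P_2. This check does not settle whether the numbers pair any of the mice.

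Comparisons used limma 3.58.1 (R 4.3.3, lmFit and eBayes) with 1 mean per group, stimuli in an additive model and the interaction over 9 combinations of group and stimulus. P-values are two-sided, adjusted by Benjamini-Hochberg over all probes, with a threshold of 0.05. The slope fit and exact permutation tests were added later. The script was tested on simulated data. The members, lists and rules were chosen with earlier results of these data known. Named from each list were the genes called in a comparison or otherwise the 2 with the largest difference by disease among Bim-deleted mice. Ccnd1 and Bcl2l11 were named as label checks, and Cd79b, Cd22, Jchain, Prdm1 and the genes most like Ighg1 were named after their values were seen.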

Additional observations from a re-analysis of the deposited data

Results flagged for a closer look

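The Ighg1 level of non-diseased Bim-deleted mouse P_1, at 6.64, lay far below the other 6 mice of its group, with a gap to the nearest of them that was 0.596 of the group's whole range, past the 95% critical value of Dixon's test. It was the only one of 24 ends past its critical value, counting the lowest and highest mouse in each group and each stimulus for Ighg1 and for probe ILMN_2440960, and chance flags about 1 in 20 groups. At probe ILMN_2440960 the same mouse was also the lowest of its group (6.52). That probe was chosen for its likeness to Ighg1, so this is not independent support, and the 24 ends are not independent either. Its array had a mean correlation of 0.953 to the other arrays of its group, the lowest of the 7.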

How the results depend on the processing

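Ighg1 passed the adjusted threshold in none of the limma settings run for any comparison. Diseased minus non-diseased Bim-deleted mice kept its direction in 31 of 31 settings, from -1.71 to -1.23 under the 9 other settings and from -1.73 to -0.91 with 1 mouse left out (without non-diseased mice P_1 and I_1), with adjusted p from 0.133 to 0.660. With array weights it was -1.59 (adjusted p = 0.191). Beside this difference of means of -1.23 (exact permutation p = 0.110), the exact permutation test of mean ranks gave p = 0.0262, or 0.236 adjusted over the 9 exact tests. With 1 mouse left out, diseased minus transgene-only mice ranged from -1.05 to -0.42, non-diseased minus transgene-only mice from 0.16 (without non-diseased mouse I_1) to 0.98 (without non-diseased mouse P_1), irradiation from -0.65 to -0.15, pristane from -1.23 to 0.19, the reversed value without non-diseased mouse P_1, and the interaction from -2.51 to -1.10. The replicate block gave -1.44 for diseased minus non-diseased, -0.83 for diseased minus transgene-only and 0.60 for non-diseased minus transgene-only mice, and of the named calls it changed only that of Xbp1 (-0.86 in diseased minus non-diseased mice, adjusted p = 0.048). In the pairing check, 4 of 22 mice correlated best with a mouse of their own number.

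Counts of probes moved more than Ighg1 did. For disease among Bim-deleted mice, 526 became 333 with no filter, 1033 with array weights, 92 with only the groups compared and 1079 without the pristane mice, and 187 to 1087 with 1 mouse left out. Against transgene-only mice, 1372 became 3806 without the pristane mice, 3534 with array weights, and 701 to 2635 with 1 mouse left out. For pristane, 4 became 2 with no filter, 37 with a 60th percentile filter, 15 with trend and robust settings and 80 with array weights, and 0 to 1813 with 1 mouse left out. The interaction count ran from 0 to 2 with 1 mouse left out. The count of probes changing with Ighg1 was 5, against 26 with no group term, 8 with group and stimulus terms and 1 without the 2 farthest mice. The cause of these shifts was not tested. Igll1, diseased minus non-diseased, turned to 0.014 without the pristane mice. The call of Bcl11b was lost in 2 of 9 other settings and that of Apex1 in 1, while Ung kept its call in all 31. Ighg1, the only immunoglobulin probe found, was not high in a single mouse at gaps of 0.5 or 1.5. Levels of constant and variable classes and their alternatives were not run, since 1 probe was found.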
